A study of Mus musculus with 8 samples.

Results

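The transcripts of IGF and insulin receptor signalling were followed in the mouse retina through 10 genes, of 18058 listed in the deposited table. They were chosen by gene name as the ligands Igf1 and Igf2, the receptors Igf1r and Insr, the binding proteins Igfbp2, Igfbp4, Igfbp5 and Igfbp7, and the receptor substrates Irs1 and Irs2. Igf1r was selected on the genotype comparison of these same libraries, since the study named it among its differing genes, and the other members were picked with that comparison known. The difference between genotypes is therefore given for every member as a description, and the counts of members past a threshold stand only beside those of all genes. All 10 members had a value in every library and belonged to the 17636 genes tested, whose mean reached 10 normalized counts.

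Retinae were taken from adult mice of the inbred strain 129S2/SvPasCrl (WT) and from adult quadruple KO mice. The latter carry germline knockouts of Bcan, Ncan, Tnc and Tnr, which encode the extracellular matrix proteins brevican, neurocan, tenascin-C and tenascin-R, and were bred by crossing single KO lines. The sources used here name no treatment, and no litter, batch or sex for any RNA sample. A difference in genetic background, near the crossed alleles or elsewhere, and the loss of the proteins cannot be told apart. Each genotype had 4 libraries, named A to D, made from 450 ng of total RNA with a directional kit. Where p-values are given they measure the spread between these libraries only.

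IGF-1 and IGF-2 are secreted peptides that bind the type 1 IGF receptor, a tyrosine kinase, and IGF-2 also binds the insulin receptor. Binding proteins hold the ligands in the extracellular space and set how much reaches the receptor. The activated receptors phosphorylate the IRS adaptors, which recruit PI3K and thereby AKT and mTOR, while a parallel branch runs through RAS and MAPK. In the retina this signalling is known for its roles in the survival of photoreceptors and other neurons and in the growth of blood vessels.

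The 3 promoters shown are those of the receptor gene on which the choice of members turned and of both substrates, which encode the step directly below the receptor. Each run is the 250 bases before a RefSeq start (build GRCm38.p6), written 5′ to 3′ on the strand of the gene. Capitals mark GC boxes, the letters GGGCGG, searched on both strands.
Igf1r, chr7:67952007-67952256, plus strand: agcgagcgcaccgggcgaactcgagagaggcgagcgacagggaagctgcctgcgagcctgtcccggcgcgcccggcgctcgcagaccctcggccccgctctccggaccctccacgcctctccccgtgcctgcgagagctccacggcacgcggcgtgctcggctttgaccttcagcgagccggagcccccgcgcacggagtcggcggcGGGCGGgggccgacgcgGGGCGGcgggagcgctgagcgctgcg
Irs1, chr1:82291440-82291689, minus strand: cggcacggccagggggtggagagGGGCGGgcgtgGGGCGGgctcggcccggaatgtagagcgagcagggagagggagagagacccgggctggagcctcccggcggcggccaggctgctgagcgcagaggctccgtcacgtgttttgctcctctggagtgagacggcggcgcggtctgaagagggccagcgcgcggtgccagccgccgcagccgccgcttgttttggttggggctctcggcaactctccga
Irs2, chr8:11008930-11009179, minus strand: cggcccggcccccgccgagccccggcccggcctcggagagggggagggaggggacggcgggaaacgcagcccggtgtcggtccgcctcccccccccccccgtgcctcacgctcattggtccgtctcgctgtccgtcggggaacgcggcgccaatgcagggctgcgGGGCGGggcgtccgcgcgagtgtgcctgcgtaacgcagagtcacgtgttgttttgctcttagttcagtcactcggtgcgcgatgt
The windows of Igf1r and Irs1 held 2 GC boxes each and that of Irs2 held 1. Their GC content was 77.6%, 72.4% and 72.8%, against a median of 52.4% over all windows. Of the 13 RefSeq windows matched to 9 of the members, 7 held a GC box, as did 32.7% of all 32851 windows of this length. The letters GTAAACA, a core of FOXO binding sites, were in 0 of the 13 windows and in 3.17% of all windows. Insr had no entry.

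The estimated depth was 23.7 to 40.6 M reads (megareads) in WT and 38.9 to 52.5 M in quadruple KO. By this estimate 149 to 14815 reads stood behind a member's value. It rests on the spacing of low values, of which at most 69.0% lay on whole steps, so read numbers are approximate. Normalized counts are estimated counts per gene, divided by the factors that DESeq2 uses to bring libraries to one scale. As a check of the tissue, all 9 cone photoreceptor markers were listed, with a sum of 29436 to 34197 in WT and 32888 to 35349 in quadruple KO, as were all 10 bipolar cell markers. In the limma fit described below, 1 of the cone markers was called higher in quadruple KO. Of the targeted genes, Ncan was at 569 to 789 in WT and at most 0.853 in quadruple KO, Bcan at 197 to 327 against 11.5 to 22.1, and Tnr at 5578 to 6317 against 2374 to 2580. Tnc RNA did not separate the genotypes, with 881 to 1592 against 1024 to 1249. These values cover the whole gene, whereas the study reports that a stretch of each targeted gene is lost in quadruple KO. By western blot it did not detect any of their proteins in postnatal quadruple KO retinae. WT B and WT C stood apart from the other 6 libraries. In estimated depth they were the lowest, at 23.7 and 27.2 M reads, against 36.1 to 52.5 M elsewhere. The RNA of the signal recognition particle took 19.3% and 14.8% of their normalized counts, against 6.82% to 8.69% elsewhere, and the 13 mitochondrial mRNAs 0.402% and 0.341%, against 1.28% to 1.64%. Every member is therefore also given against WT A and D alone. WT A and WT D differed from each other too. Of 10 retinal pigment epithelium markers 8 were listed, with a sum of 2597 in WT A and 7189 in WT D. It was 3758 to 3930 in WT B and C and 2721 to 4181 in quadruple KO. The part of such tissue in the values of the members was not tested.

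Igf1r, the receptor for both IGFs, had the highest level of the 10 members and a lower value in each quadruple KO library than in any WT library. It lies on chromosome 7 (GRCm39, 67601518 to 67883416, plus strand). Normalized counts were 13499, 15050.2, 12764 and 12148 in WT A, B, C and D, and 10724, 10841, 10504 and 10559 in KO A, B, C and D. The WT libraries spread over a wide range with WT B at the top, the KO libraries lay close together, and the genotypes did not overlap. The means were 13365 ± 1252 in WT and 10657 ± 154 in quadruple KO (SD, n = 4), so that the KO mean was 79.7% of the WT mean. On the log2(value + 1) scale, used for every difference, KO minus WT was -0.32 (SE 0.08). Against WT A and D alone it was -0.27 (SE 0.05), and leaving out any 1 library gave -0.37 to -0.26. Igf1r was the only member in which WT B and WT C did not lie on the same side of WT A and WT D.

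Insr, which encodes the insulin receptor, lies on chromosome 8 (GRCm39, 3172061 to 3329647, minus strand). It measured 5625, 6706, 6825 and 5135 in WT A to D and 4853, 5003, 4773 and 4824 in KO A to D. All KO libraries again lay below all WT libraries, with WT D only slightly above KO B, and WT B and WT C were the highest. The means were 6073 ± 826 and 4863 ± 98.6 (SD, n = 4), a log2 difference of -0.31 (SE 0.10). Without WT B and WT C the difference was -0.14 (SE 0.05), smaller in size than with all libraries. The ratio of Igf1r to Insr per kb of exon was 1.55 ± 0.17 in WT and 1.53 ± 0.013 in quadruple KO (SD, n = 4). It was lowest in WT C at 1.30 and highest in WT A at 1.67, and the 4 KO values lay inside the WT range. The retinae are bulk samples, in which fewer cells of a type and less RNA per cell cannot be told apart.

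**Figure D1:**
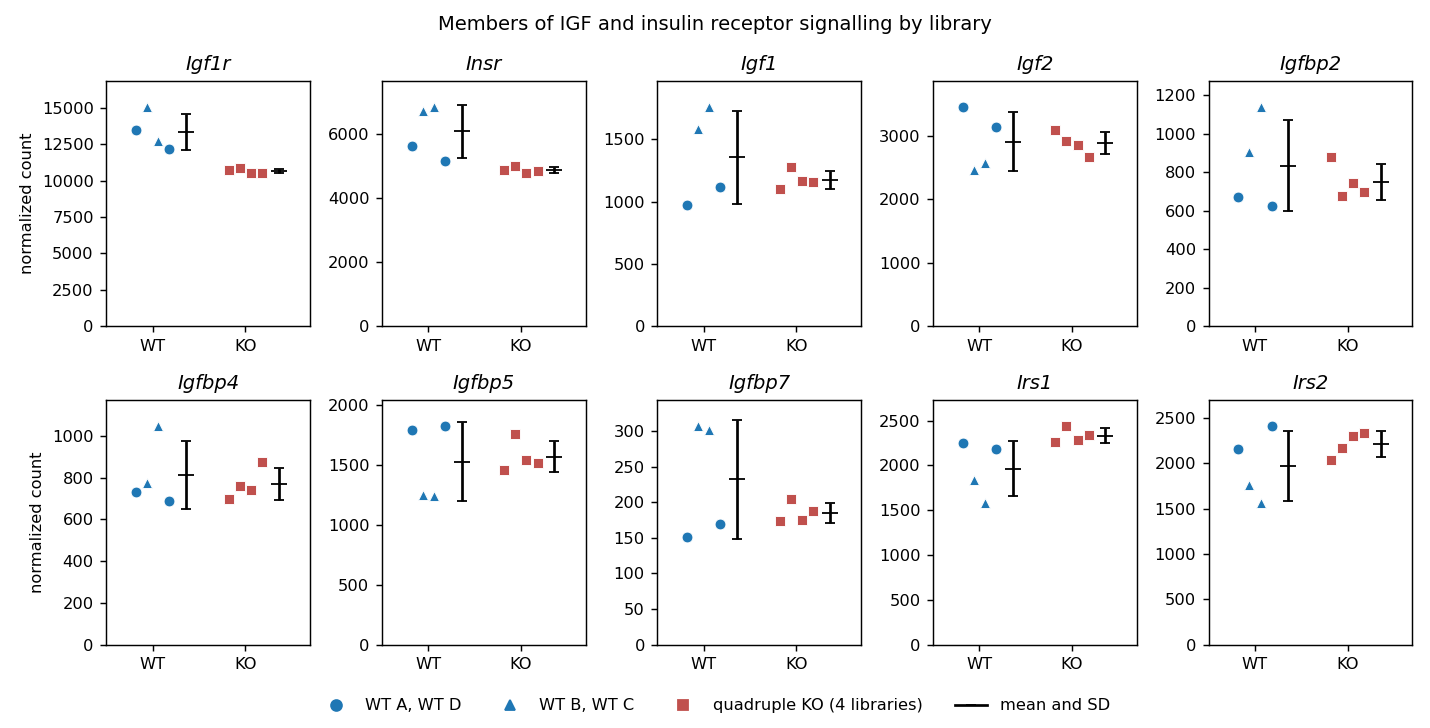
Normalized counts of the 10 members (vertical axes, starting at 0, each with its own scale) in WT and quadruple KO libraries. Circles are WT A and WT D, triangles WT B and WT C, squares the 4 KO libraries, and black bars the mean and SD of 4 libraries. In 9 of the 10 panels both triangles lie on the same side of both circles.

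Igf1, the ligand that growth hormone induces in liver and that many tissues also make locally, was split within WT. It lies on chromosome 10 (GRCm39, 87693642 to 87772904, plus strand). It measured 969, 1586, 1759 and 1114 in WT A to D, and 1102, 1278, 1165 and 1157 in KO A to D. WT B and WT C lay above every other library, WT A below every other, and the KO libraries fell between. The means were 1357 ± 376 and 1176 ± 73.6 (SD, n = 4), and the log2 difference was -0.17 (SE 0.18), within the spread of the WT libraries. Against WT A and D alone it turned to 0.18 (SE 0.08).

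Igf2, the imprinted ligand known for fetal growth, had almost the same mean in both genotypes. It lies on chromosome 7 (GRCm39, 142204503 to 142220694, minus strand). It measured 3453, 2467, 2573 and 3138 in WT A to D and 3087, 2929, 2855 and 2669.8 in KO A to D. Here WT B and WT C were the lowest libraries, the reverse of Igf1, and all KO values lay inside the WT range. The means were 2908 ± 468 and 2885 ± 173 (SD, n = 4), with a log2 difference of 0.00 (SE 0.11). Against WT A and WT D alone it was -0.19 (SE 0.07). The ratio of Igf2 to Igf1 per kb ran from 2.43 in WT C to 5.92 in WT A, both within WT, and averaged 4.09 ± 0.39 in quadruple KO. The annotated Gm49394 covers Igf2 on the same strand, Mir483 lies within it, and Igf2os and Gm33148 overlap it on the other strand. How such reads were divided is not stated, which leaves the level of Igf2 uncertain.

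Of the binding proteins, Igfbp2, Igfbp4 and Igfbp7 were higher in WT B and WT C than in WT A and WT D, and Igfbp5 was lower. Igfbp2 (chromosome 1, 72863606 to 72891634, plus strand, GRCm39) encodes a binding protein that is secreted in the nervous system. It measured 669.9, 907, 1137 and 621 in WT A to D, and 879.7, 677, 742 and 695 in KO A to D. The KO values lay inside the WT range, KO A the highest of them, and the log2 difference was -0.12 (SE 0.19) between means of 834 ± 238 and 749 ± 91.6 (SD, n = 4). It turned to 0.21 (SE 0.11) against WT A and D alone, and to 0.04 without WT C.

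Igfbp5 encodes the most conserved IGF binding protein and is the neighbour of Igfbp2, transcribed from the other strand (chromosome 1, 72897091 to 72914043, GRCm39). It measured 1791, 1243, 1234 and 1823 in WT A to D, and 1458, 1755, 1538 and 1511 in KO A to D. WT A and WT D were the highest libraries, WT B and WT C the lowest, and the KO libraries lay between both pairs. The means were 1523 ± 329 and 1565 ± 131 (SD, n = 4), and the log2 difference was 0.06 (SE 0.15). It turned to -0.21 (SE 0.08) against WT A and D alone, and to -0.03 without WT B or without WT C. The ratio of Igfbp5 to Igfbp2 per kb ran from 0.376 in WT C to 1.02 in WT D, which took in all KO libraries. Igfbp5 made up 19.7% to 38.5% of the summed level per kb of the 4 binding proteins over the 8 libraries.

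Igfbp4 encodes a binding protein that the protease PAPP-A cleaves to free its ligand, and lies on chromosome 11 (98932064 to 98945218, plus strand, GRCm39). It measured 733, 777, 1049 and 689 in WT A to D, and 696, 762, 741 and 877 in KO A to D. A single library of each genotype, WT C and KO D, stood above the others. The means were 812 ± 162 and 769 ± 76.95 (SD, n = 4), and the log2 difference was -0.06 (SE 0.14). It turned to 0.11 (SE 0.09) against WT A and D alone, and to 0.07 without WT C.

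Igfbp7 encodes a low-affinity binding protein known from blood vessel endothelium, and lies on chromosome 5 (77493130 to 77555931, minus strand, GRCm39). It was the lowest member and the one that varied most within WT. It measured 152, 307, 301 and 169 in WT A to D, and 173, 204, 175 and 187 in KO A to D. WT B and WT C averaged 1.90 times the mean of WT A and WT D, and the KO libraries lay between the pairs. The means were 232 ± 83.5 and 185 ± 14.2 (SD, n = 4), and the log2 difference was -0.26 (SE 0.24), against 0.20 (SE 0.12) with WT A and WT D alone. At its lowest, an estimated 149 reads stood behind a value, for which counting error alone would be about 8.19%. Polr2b, which is also listed, overlaps one end of Igfbp7 on the other strand, and whether counting used strand is not stated.

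Irs1 encodes an adaptor of both receptors and lies on chromosome 1 (82210822 to 82269338, minus strand, GRCm39). It measured 2255, 1837, 1586 and 2179 in WT A to D, and 2259, 2443, 2287 and 2343 in KO A to D. Every KO library lay above every WT library, but KO A and WT A were nearly equal, and WT B and WT C were the lowest of the 8. The means were 1964 ± 311 and 2333 ± 81.2 (SD, n = 4), a log2 difference of 0.26 (SE 0.11). Compared with WT A and D alone it was 0.07 (SE 0.05).

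Irs2 encodes the second adaptor, known for its part in insulin action in liver and beta cells, and lies on chromosome 8 (11034681 to 11059499, minus strand, GRCm39). It measured 2162, 1759, 1560.1 and 2413 in WT A to D, and 2032, 2168, 2305 and 2338 in KO A to D. WT B and WT C lay below all KO libraries and WT D above them, so the genotypes overlapped. The means were 1974 ± 385 and 2211 ± 139.8 (SD, n = 4), with a log2 difference of 0.18 (SE 0.13), which was -0.05 (SE 0.07) with WT A and WT D alone. The ratio of Irs2 to Irs1 per kb stayed between 1.13 and 1.41 over the 8 libraries, with 1.27 ± 0.090 in WT and 1.20 ± 0.080 in quadruple KO (SD, n = 4). Both substrates, whose promoters are given above, were thus low in the same WT libraries.

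By limma with Benjamini-Hochberg adjustment over all genes, 0 of the 10 members were called at an adjusted p under 0.05, where 0.437% of the 17636 genes were called. At an unadjusted p under 0.05 there were 3 members, of which Igf1r and Insr were lower and Irs1 higher in quadruple KO, beside 16.6% of all genes. In 2 members all KO libraries lay below all WT libraries, as in 3.58% of all genes, and in 1 member all lay above, as in 6.16%. These counts come from the comparison with which the members were chosen, and nothing is read from them. By DESeq2, an unlike test, the study called Igf1r lower at an adjusted p under 0.05.

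**Figure D2:**
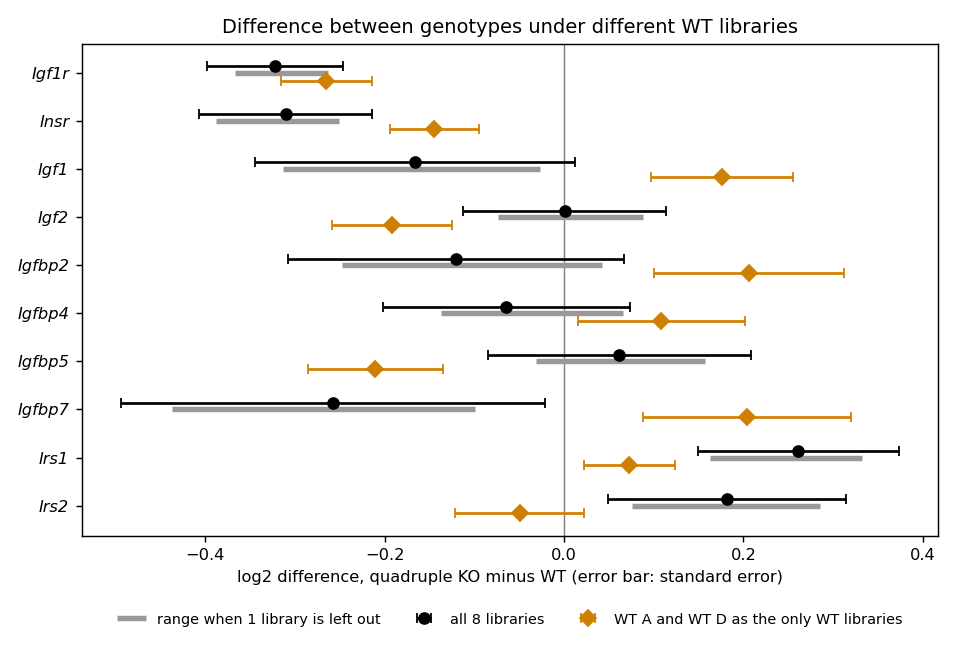
Log2 difference of each member, quadruple KO minus WT (horizontal axis), with all 8 libraries (black circles), against WT A and D alone (orange diamonds), both with standard errors, and the range when 1 library is left out (grey bars). In 7 of the 10 members the diamond lies on the other side of 0 from the circle, while Igf1r stays at -0.27.

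In 9 of the 10 members, all but Igf1r, the log2 ratio of WT B and C to WT A and D was larger in size than the log2 difference between genotypes. WT B and C were both higher than WT A and D in 5 members, Insr, Igf1, Igfbp2, Igfbp4 and Igfbp7, where 35.1% of all genes did so. They were both lower in 4 members, Igf2, Igfbp5, Irs1 and Irs2, where 35.8% of all genes did so. Against WT A and D alone the sign differed in 7 members and was the same in Igf1r, Insr and Irs1. In 7 members the KO mean lay between the mean of WT B and WT C and that of WT A and WT D. For the larger split, the differing sign and this position of the KO mean, no share over all genes is given. These counts are therefore not read as a trait of the members. The coefficient of variation was larger in WT than in quadruple KO in all 10 members, from 9.37% in Igf1r to 35.96% in Igfbp7 within WT and from 1.45% to 12.2% within quadruple KO. The medians over all genes tested were 18.3% and 7.26%.

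The summed levels of several marker lists also separated WT B and C from WT A and D. All 10 Mueller glia markers were listed, with a sum of 204377 to 211671 in WT B and C, 154827 to 170795 in WT A and D and 154690 to 170455 in quadruple KO. All 10 amacrine cell markers were listed, at 60689 to 70667, 49606 to 52485 and 50644 to 53471.5 in the same order. These sums were higher in WT B and C, although 4 of the Mueller glia markers and 8 of the amacrine markers were lower there. All 5 horizontal cell markers were listed, at 8238 to 8756, 11335 to 11495 and 11274 to 12329. All 8 mural cell markers were listed, at 1312 to 1344, 1838 to 1976 and 1284 to 1823. All 9 endothelial markers were listed, at 12563 to 13793, 14951 to 16418 and 13970.0 to 16012. These lists had their lowest WT sums in WT B and C. Both libraries were lower than WT A and D in 3 of the horizontal cell, 4 of the mural cell and 3 of the endothelial markers. They were both higher in 1 horizontal cell marker and 1 endothelial marker. Between genotypes, 1 endothelial marker was called lower in quadruple KO by limma. The cone sums were 29436 to 33007 in WT B and C and 33599 to 34197 in WT A and D. Both WT B and C were higher in 4 cone markers and lower in 4. Of the lens markers 4 of 7 were listed, at 434 to 1659, 64.4 to 179 and 31.8 to 1344. Of the fibroblast and sclera markers 7 of 8 were listed, at 903 to 1088, 808 to 831 and 628 to 814. All 6 ciliary epithelium markers were listed, at 1482 to 1663, 1306 to 1397 and 1657 to 1968. In these lists the sums of WT B and C were above those of WT A and D. All 4 lens markers were higher there. Of the fibroblast and sclera markers 3 were higher and 2 lower, and of the ciliary epithelium markers likewise 3 were higher and 2 lower. The 9 microglia markers summed to 1397 in WT A, 1658 in WT B, 1626 in WT C and 1613 in WT D, and to 1435 to 1566 in quadruple KO, so that WT A alone was low. Between genotypes, the 10 rod markers summed to 1.55e+06 to 1.94e+06 in WT and 1.96e+06 to 2.12e+06 in quadruple KO, without overlap. The KO mean was higher in 7 rod markers and lower in 3. Within WT the rod sums were 1.55e+06 to 1.80e+06 in WT B and C and 1.84e+06 to 1.94e+06 in WT A and D. Both WT B and C were higher in 3 rod markers and lower in 3. The 9 ganglion cell markers summed to 29867 to 33348 in WT and 25037 to 29985 in quadruple KO. Their KO mean was lower in 7 of 9. The 4 astrocyte markers summed to 1259 to 1462 and 851 to 1437, with a lower KO mean in 4 of 4. The part of these cells, and of the mitochondrial and signal recognition particle RNA, in the values of the members was not tested.

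Levels between genes were compared per kb of annotated exon, on the mean of all 8 libraries. Igf1r led with 608 ± 84.3 normalized counts per kb (SD, n = 8), at the 89.7th percentile of the 14313 protein-coding genes tested. Igf2 followed with 470.0 ± 53.0, Insr with 397 ± 61.3 and Igfbp2 with 381 ± 83.1. Irs2 was at 284 ± 40.3, Igfbp5 at 257 ± 38.7 and Irs1 at 229.9 ± 30.8. Igfbp4 had 179 ± 27.1, Igf1 124 ± 26.3 and Igfbp7 38.3 ± 11.2. The receptor and Igf2 thus stood above the substrates, and Igf1 stood at the median protein-coding gene, which was at 123 per kb.

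The order was set on the means of the same 8 libraries in which it was then tested. The tests used differences within each library, which do not use the genotype. They were exact two-sided sign-flip permutation tests adjusted over the 9 neighbouring pairs. An error of exon length or of overlapping genes that all libraries share would give the same sign in each. The p-values therefore cover the spread between libraries and not such errors. Igf1r was above Igf2 in 8 of 8 libraries, by 0.37 ± 0.27 on the log2 scale (SD), exact p = 0.0078, the smallest that 8 libraries allow, and adjusted p = 0.0176. Igf1 was above Igfbp7 in 8 of 8 libraries by 1.71 ± 0.12 (exact adjusted p = 0.0176). In all, 7 of the 9 pairs differed, with exact adjusted p from 0.0176 to 0.0402. With 7 libraries, 4 pairs differed when WT B or any 1 KO library was left out, and 5 or 6 when another WT library was. The exceptions were Igf2 and Insr, which differed by 0.25 ± 0.32 in 6 of 8 libraries (exact p = 0.0781, adjusted p = 0.0879), and Insr and Igfbp2, which differed by 0.07 ± 0.21 in 5 of 8 libraries (exact p = 0.344). The order of the means was the same in all 13 alternatives, among them the length of the longest transcript and the omission of WT B and C together. All 13 reuse libraries on which the order was set, so they do not test it independently.

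**Figure D3:**
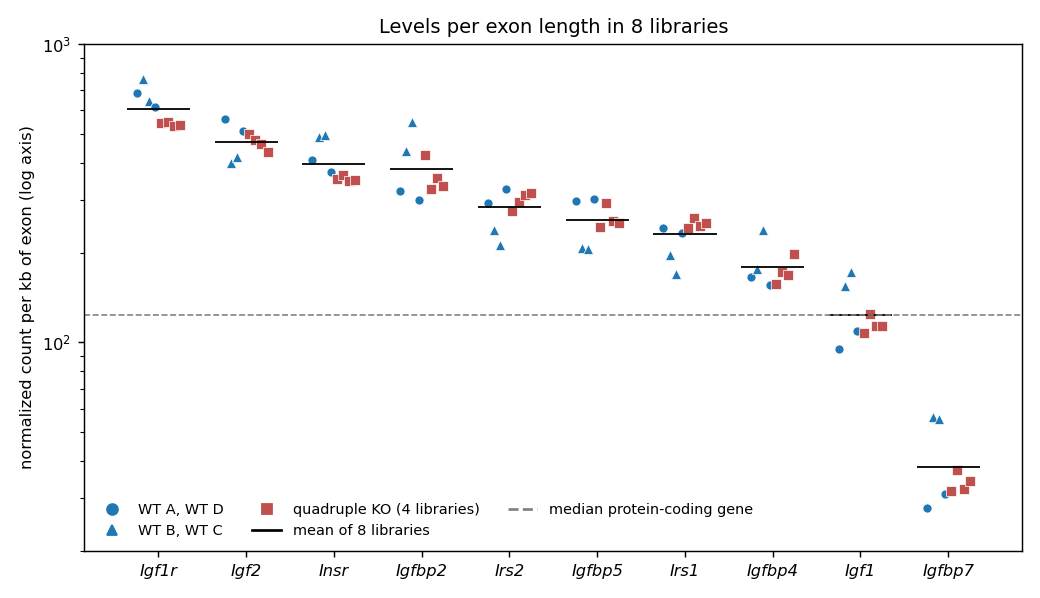
Normalized counts per kb of exon (log axis) of the 10 members in 8 libraries, in the order of their means (black lines). Symbols mark WT A and WT D (circles), WT B and WT C (triangles) and quadruple KO (squares), and the dashed line is the median protein-coding gene at 123. Igf1r lies above Igf2 in every library and Igfbp7 below the dashed line in every library.

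The rest of the pathway was read from 9 lists of 134 genes, of which 123 were in the table and 122 were tested. By limma with Benjamini-Hochberg adjustment over all genes, 1 gene was called, Hk2, which was lower in quadruple KO, and 0 were called higher, beside 0.437% of all genes called. At an unadjusted p under 0.05 there were 31 genes (25.4%), 13 lower and 18 higher, beside 16.6% of all genes tested. The counts per list given below stand beside the same 16.6%, and no set test was run. The median log2 difference was -0.01 over the lists and 0.00 over all genes tested. Both WT B and C lay on the same side of WT A and D in 92 of these genes, above in 51 and below in 41, beside 35.1% and 35.8% of all genes.

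Hk2 encodes hexokinase 2, which commits glucose to glycolysis, is raised by insulin in muscle, and is the hexokinase known from photoreceptors. It lies on chromosome 6 (82699740 to 82751469, minus strand, GRCm39). It measured 23148, 26813, 27196 and 22556 in WT A to D, and 16915, 15934, 18963 and 16314 in KO A to D. All KO libraries lay below all WT libraries with a gap wider than the spread of either WT pair. The means were 24928 ± 2415 and 17031 ± 1349.55 (SD, n = 4), a log2 difference of -0.55 (SE 0.09, limma adjusted p = 0.0383). Over the alternatives its limma adjusted p ran from 0.0086 to 0.197. The call was lost when any library other than WT D was left out, although the log2 difference stayed between -0.60 and -0.50 in all 8 such fits. Against WT A and D alone the difference was smaller in size and the call was kept (log2 difference -0.43, limma adjusted p = 0.0399).

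Among the other ligands and receptors, 3 were tested and 0 passed an unadjusted p under 0.05. Igflr1, which encodes a receptor for IGF-like proteins, measured 37.5 ± 28.2 in WT and 9.25 ± 11.1 in quadruple KO (SD, n = 4), and Insrr, the insulin receptor-related receptor, 45.1 ± 11.3 and 40.0 ± 6.82. Of the 9 other binding proteins and proteases tested, 1 passed the unadjusted threshold. Adam9, a membrane protease, measured 4514 ± 455 and 5123 ± 138 (log2 difference 0.19, SE 0.08), and Igfbp3, the main carrier of IGF in serum, 33.4 ± 7.95 and 23.4 ± 3.82 (log2 difference -0.48, SE 0.24).

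Of the 19 receptor adaptors, 2 passed the unadjusted threshold lower and 2 higher. Sh2b2, an adaptor of the insulin receptor, had a log2 difference of -0.50 (SE 0.17), and Crkl, an adaptor that binds phosphorylated IRS proteins, one of 0.21 (SE 0.07). Of the 14 phosphatases and feedback inhibitors, 1 was lower and 2 higher at the unadjusted threshold. Socs1, an inducible inhibitor of IRS signalling, had -0.68 (SE 0.24) at 31.9 ± 6.97 against 19.4 ± 4.08 normalized counts (SD, n = 4), and Ptpra, a receptor phosphatase, 0.23 (SE 0.09). None of these was called. Over the 18 pathway genes described here, all but Hk2 had a limma adjusted p from 0.0870 to 0.701.

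In the PI3K and AKT list, which acts directly below Irs1 and Irs2, 1 of 14 genes was lower and 4 were higher at the unadjusted threshold. This was 35.7%, beside 16.6% of all genes, and the median log2 difference was 0.13. Pik3r1, the regulatory subunit that docks on phosphorylated IRS proteins, measured 5608 ± 715 in WT and 7065 ± 593 in quadruple KO (SD, n = 4), a log2 difference of 0.34 (SE 0.10). All KO libraries lay above all WT libraries, and WT B and WT C were the lowest, as in Irs1. Gsk3a, a kinase that AKT inhibits, had a difference of 0.28 (SE 0.11). With WT A and WT D alone these differences were 0.18 and 0.10. WT B and WT C lay outside WT A and WT D in 13 of the 14 genes, below in 8 and above in 5. Over all genes they lay below in 35.8% and above in 35.1%.

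Of the 20 genes of the mTOR complexes and targets, 2 were lower and 2 higher at the unadjusted threshold. Mlst8, a subunit of both mTOR complexes, had a log2 difference of 0.27 (SE 0.08), and Ulk1, the autophagy kinase that mTOR restrains, one of -0.29 (SE 0.10). Of the 20 genes of the RAS and MAPK branch, 4 were lower and 4 higher at that threshold (40%, beside 16.6% of all genes). Nf1, which encodes the RAS inhibitor neurofibromin, measured 11854 ± 883 and 9862 ± 529 (SD, n = 4), a log2 difference of -0.26 (SE 0.07) and of -0.27 with WT A and WT D alone. Mapk3, which encodes the kinase ERK1, had one of 0.27 (SE 0.09).

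Of the 18 FOXO factors and insulin-responsive transcripts tested, 2 were lower and 2 higher at the unadjusted threshold, Hk2 among the former. Srebf1, a regulator of lipid synthesis that insulin induces, measured 7104 ± 1135 and 5676 ± 260.2 (SD, n = 4), a log2 difference of -0.31 (SE 0.11) that was -0.11 with WT A and WT D alone. Of the 5 genes tested that bind Igf2 messenger RNA or lie in its imprinted region, 1 was lower and 1 higher. Igf2bp2, whose protein binds Igf2 messenger RNA, measured 73.0 ± 14.8 in WT and 146 ± 25.5 in quadruple KO (SD, n = 4), with no overlap, and was not called (log2 difference 0.99, SE 0.19, limma adjusted p = 0.0870). Igf2bp3, of the same family, measured 18.5 ± 14.1 and 5.13 ± 1.76 (log2 difference -1.45, SE 0.50). Its values were low, with 38.6 in WT B, 6.51 to 16.8 in the other WT libraries and 3.56 to 7.48 in quadruple KO. Igf2 itself, the messenger RNA that both proteins bind, differed by 0.00 between the genotypes and by -0.19 (SE 0.07) against WT A and WT D alone. Whether the binding proteins bear on Igf2 was not tested.

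**Figure D4:**
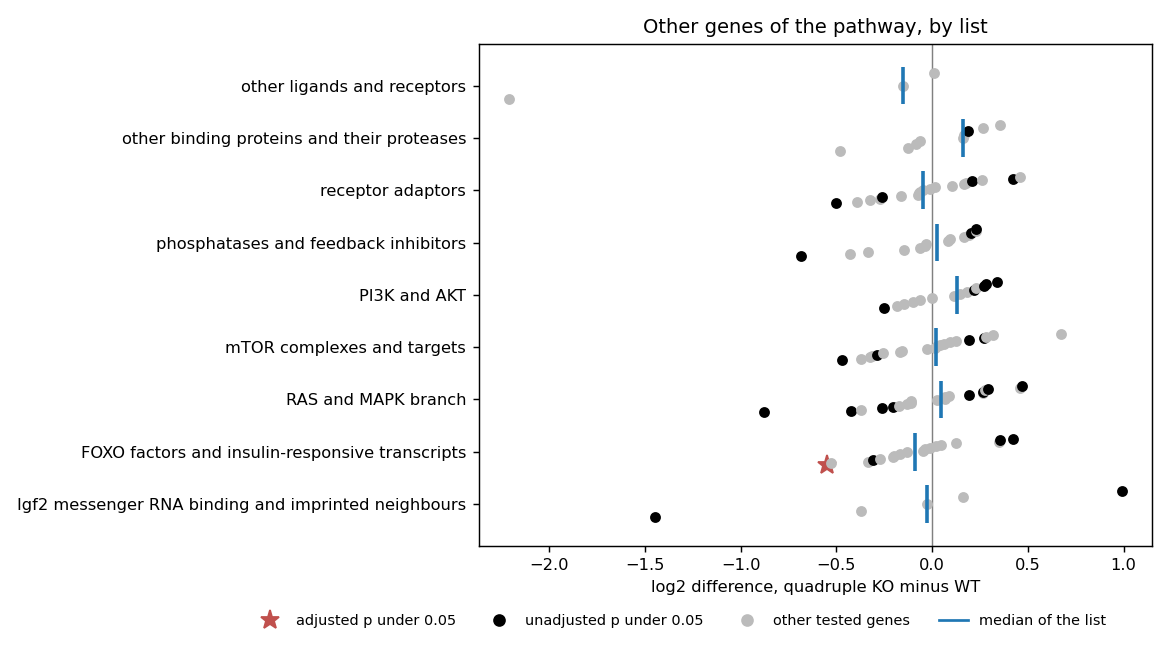
Log2 difference, quadruple KO minus WT (horizontal axis), of the 122 tested pathway genes by list (vertical axis). The star marks an adjusted p under 0.05, black points an unadjusted p under 0.05, grey points all others, and blue lines the median of each list. The single star is Hk2, and the medians lie between -0.15 and 0.16.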

How the data were processed

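The authors trimmed reads with Trim Galore 0.6.7, aligned them to GRCm39 with STAR 2.7.9a, estimated gene counts with Salmon 1.5.2 and normalized them with DESeq2 1.32.0, per the labels. They deposited 1 table of normalized counts per library, which lists no gene with a mean under 8.5. Its columns of fold changes and p-values from the authors' own comparison were not used. Of the low values, at most 69.0% lay on whole steps, which is too few to recover whole reads, and count models were left out.

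Normalized counts were log2-transformed with a pseudocount of 1, and 17636 genes, those whose mean reached 10, were fitted with limma 3.58.1 in R 4.3.3 (eBayes with trend, no covariate, two-sided), adjusted by Benjamini-Hochberg at 0.05. The design named this test for normalized values. Summaries used Python 3.11.15, pandas 2.3.3 and scipy 1.17.1, and plots matplotlib 3.10.9. Positions and exon lengths came from GENCODE on GRCm39 (17969 of 18058 genes matched). The fit was tested on simulated counts with the same spread in all 8 libraries and no split of WT B and WT C. That simulation therefore does not show how the fit behaves under the unequal spread and the split seen here.

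Members and lists were chosen with earlier results of these data known. Named were all members, every gene called in a pathway list, the 2 with the smallest unadjusted p in each list, and the targeted genes. Igf2bp2 had been seen in a list of the study. Of the pathway genes, 11 were not analysed here and 1 fell under the minimum mean. Alternatives are given at the end.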

Additional observations from a re-analysis of the deposited data

Results flagged for a closer look

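In the 10 members and the 18 pathway genes described, each genotype was examined for a library far from the other 3, in 56 groups in all, where chance picks out about 1 in 20. The 10 members had no such library. Adam9 had 1 in each genotype. It measured 3836.76 in WT B, against 4678 to 4819 in the other WT libraries, a gap of 0.857 of the whole range. It measured 4916.45 in KO B, against 5179 to 5198 in the other KO libraries, a gap of 0.932 of the range.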

How the results depend on the processing

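The number of genes called (77) was 143 with array weights, which gave WT B and WT C weights of 0.164 and 0.156, and 51 with the replicate block, and 56 to 89 when 1 library was left out. The pathway genes called (1, Hk2) were 2 with array weights (Hk2 and Nf1) and 0 without a trend, at an adjusted p under 0.01 and with the replicate block, and 0 to 1 when 1 library was left out. Igf1r was the only member called by limma in any setting, and only with array weights, beside the 143 genes called there. Same-letter libraries deviated together with r of -0.01, -0.11, 0.10 and 0.05 for A to D over genes, and only C matched its own letter best, so the letters were not taken as pairs. The neighbouring members that differ in level per kb (7) were 4 to 6 when 1 library was left out, 4 without WT B or any 1 KO library, where the smallest exact p that 7 libraries allow is 0.0156. Of 190 values of the members, 179 moved by less than the spread between libraries, which includes the split within WT. Settings that changed only the filter, the trend or the prior, and the replicate block, could not change a member's difference or sign. The values of those settings were fixed in advance and do not bear on stability. Against WT A and D alone the log2 difference was -0.14 for Insr, 0.18 for Igf1, -0.19 for Igf2, 0.21 for Igfbp2, -0.21 for Igfbp5, 0.20 for Igfbp7, 0.073 for Irs1 and -0.049 for Irs2, and with array weights it was 0.17 for Igf1, -0.19 for Igf2 and 0.17 for Igfbp7. Over 19 settings the sign turned in 7 for Igf2, 4 for Igfbp5, 3 each for Igfbp2 and Igfbp4, 2 each for Igf1 and Igfbp7, 1 for Irs2 and 0 for Igf1r, Insr and Irs1. The cause was not tested. Repeats with count tools were not run because the table holds no whole counts.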
